A study of Mus musculus with 27 samples.

Results

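The comparison described here asks whether mouse macrophages that had been irradiated as bone marrow precursors answered interleukin-4 (IL-4) as non-irradiated macrophages did. It rests on 18 of the 27 sequenced libraries: 3 non-irradiated libraries in control medium, 3 non-irradiated libraries with IL-4, 6 irradiated libraries in the control state and 6 irradiated libraries in the IL-4 state. All cells came from the femur and tibia marrow of C57/B6 mice. They received a 5 Gy proton beam, as FLASH (a very high dose rate) or as a standard beam, or no beam. All groups were then differentiated with CSF-1 at 10 ng/ml for 7 days, and kept for 2 days in control medium (labelled M0) or in IL-4 at 20 ng/ml (labelled M2). A further arm received LPS at 100 ng/ml (labelled M1). The beam was thus given to marrow cells before differentiation, so every irradiated macrophage grew from cells that survived it. The sources used here do not say whether the 3 replicates of a group were separate mice or cultures, so every p-value here reflects only how far these libraries lie apart, which may be technical.

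IL-4 binds a receptor that contains Il4ra and activates the transcription factor STAT6. In mouse macrophages this switches on the alternative activation genes, which include secreted proteins such as Retnla and Chil3, the arginine-degrading enzyme Arg1, the mannose receptor Mrc1 and genes of macrophage fusion such as Ocstamp. It also lowers a group of scavenger receptor and complement genes that resident-type macrophages express.

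The irradiated libraries were chosen by their measured levels of Irg1 and Arg1 and not by their labels: LPS where Irg1, an LPS-induced enzyme, reached 500 CPM (a read count scaled to library depth), IL-4 where Arg1 reached 100 CPM, and control otherwise. Non-irradiated libraries kept their labels. The values that set the state left wide gaps. Among irradiated libraries the lowest Irg1 level counted as LPS was 1282 CPM and the highest below it was 30.9 CPM. The lowest Arg1 level counted as IL-4 was 631 CPM, and the highest level in the irradiated control state was 11.1 CPM. Over the series 5 libraries had a state at odds with the label, each of them replicate 1 of an irradiated group. Of these, 3 are among the 18: the libraries labelled FLASH M0 replicate 1 and standard M1 replicate 1 count as IL-4, and the library labelled FLASH M1 replicate 1 counts as control. The other 2, labelled FLASH M2 replicate 1 and standard M2 replicate 1, count as LPS and are not used.

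Because the states of the irradiated libraries were read from an outcome of IL-4 itself, values over the 18 libraries are a description and carry no test. A lack of overlap between irradiated and non-irradiated libraries is likewise a description, and the share of all genes with it is not given here. The tests were made on the 12 libraries of replicates 2 and 3, with states taken from the labels: 4 irradiated IL-4, 4 irradiated control, 2 non-irradiated IL-4 and 2 non-irradiated control libraries. Arg1 and Irg1 were not tested. Differences are on the scale of log2(CPM + 0.5), which understates those of genes at low levels. Below, the response without irradiation is the log2 difference of IL-4 from control in non-irradiated libraries, the response after irradiation is the same difference in irradiated libraries, and the interaction is the second minus the first. A response is called lost where it was called without irradiation, was not called after irradiation and the interaction was called against it. It is unchanged where both responses were called in one direction and the 95% interval of the interaction lay within 1 log2 unit of 0.

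The steps between low values put the depth of the 18 libraries at an estimated 20677717 to 25842809 reads, taking the commonest low value as 1 read, and 11577 to 12099 genes per library reached 1 CPM. The summed level of 9 macrophage markers was 15315 to 18621 CPM in non-irradiated and 17032 to 25093 CPM in irradiated control libraries. With IL-4 it was 6363 to 7206 CPM without and 11340 to 13908 CPM after irradiation, which do not overlap. Both genes that mark the IL-4 state followed it: Retnla and Ocstamp were higher in each of the 9 IL-4 libraries than in any of the 9 control libraries. One non-irradiated IL-4 library, replicate 3, stood apart in Arg1, at 161 CPM against 713 and 653 CPM in replicates 1 and 2. Its summed proliferation genes (908.5 against 1741 and 2177 CPM) and chemokines (1694 against 2678 and 2880 CPM) were also lower. Its summed alternative activation effectors were not (17210 against 15950 and 16590 CPM). It is 1 of only 2 non-irradiated IL-4 libraries in the tests.

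The promoters of 3 genes are shown, the only 3 of 19 looked at that hold a match to the motifs given below. After irradiation Retnla and Pdcd1lg2 reached lower IL-4 levels, and Chil3 did not. Rnase2a, which also reached a lower IL-4 level, has a promoter without a match and is not shown. Whether a match bears on the response was not tested. Each line gives the 250 bases before the annotated start on the coding strand, in the mouse build GRCm38.p6 from RefSeq. They lie at chr16:48842359-48842608 (plus strand, Retnla), chr19:29410669-29410918 (plus strand, Pdcd1lg2) and chr3:106167565-106167814 (minus strand, Chil3). Capitals mark a match to the palindromic STAT spacing motifs TTCNNNNGAA (the spacing STAT6 prefers) or TTCNNNGAA, which read the same on both strands.
Retnla: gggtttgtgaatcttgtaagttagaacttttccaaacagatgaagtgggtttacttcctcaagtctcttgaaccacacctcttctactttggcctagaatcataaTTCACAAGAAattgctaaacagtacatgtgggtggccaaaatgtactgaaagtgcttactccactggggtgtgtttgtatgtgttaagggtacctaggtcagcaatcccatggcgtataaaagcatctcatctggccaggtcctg
Pdcd1lg2: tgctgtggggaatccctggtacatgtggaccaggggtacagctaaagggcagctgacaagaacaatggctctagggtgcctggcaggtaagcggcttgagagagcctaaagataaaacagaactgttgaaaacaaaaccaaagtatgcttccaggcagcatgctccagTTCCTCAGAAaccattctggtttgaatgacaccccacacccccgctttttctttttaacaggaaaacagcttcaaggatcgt
Chil3: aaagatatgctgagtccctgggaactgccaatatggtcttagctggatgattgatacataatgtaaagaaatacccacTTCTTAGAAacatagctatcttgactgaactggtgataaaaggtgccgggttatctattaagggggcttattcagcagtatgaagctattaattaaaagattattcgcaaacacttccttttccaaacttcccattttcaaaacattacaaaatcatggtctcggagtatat

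The match of Retnla begins at -145 and that of Pdcd1lg2 at -82, both with 4 bases between the arms. The match of Chil3 begins at -172 and has 3 bases between the arms. Of 25 genes looked up, 19 had a promoter in the table, and these were the only 3 with a match. Over all 32851 promoters of 300 bases in that table, TTCNNNNGAA occurred in 6.95% and TTCNNNGAA in 8.3%. Among the 12505 promoters of genes kept for the tests, the shares were 5.42% and 6.78%. A match is a string of letters and not a measured binding site.

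Most genes that responded to IL-4 without irradiation moved in the same direction after it, and very few differences of response passed the test. Of 13040 genes tested with limma, 1245 rose (9.55%) and 1165 fell (8.93%) with IL-4 without irradiation, and 1591 rose (12.2%) and 1518 fell (11.6%) after irradiation, each at a Benjamini-Hochberg adjusted p below 0.05. The irradiated contrast held 8 libraries and the other one 4, so the 2 counts are not a measure of strength. Of the 2410 genes called without irradiation, 2293 had a response of the same sign after it. Of 1639 genes called in both, 1637 moved the same way. The 2 responses share no library, and across genes their log2 values had a Pearson r of 0.679 (genes are not independent replicates).

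The interaction was called for 2 genes (0.0153% of those tested), and for 0 with replicate number as a block in the fit. In the main fit 1249 genes had an unadjusted p below 0.05. By the definitions above, 2 responses were lost, none was weakened or gained, 1179 were unchanged (643 higher and 536 lower with IL-4) and 2699 were undecided. Undecided holds every other gene called in either response: 769 were called without irradiation only, 1470 after irradiation only and 460 in both. Some of these had a narrow interval but only 1 called response. Of the genes called without irradiation, 1522 had an interval within 1 log2 unit of 0, more than the 1179 unchanged. The median half-width of the 95% interval of the interaction was 0.622 log2 units. After adjustment a call needed far more than an interval clear of 0, and several interactions above 1 log2 unit with such intervals were not called. These counts rest on few libraries. The interaction was called for 0 genes on leaving out any 1 library of FLASH M0, standard M0 or standard M2, or FLASH M2 replicate 2. Each fit that leaves out a non-irradiated library keeps only 1 in that group, and there the count moved both up and down. It was highest without non-irradiated IL-4 replicate 2, where replicate 3, which stood apart in Arg1, is the only library left.

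**Figure D1:**
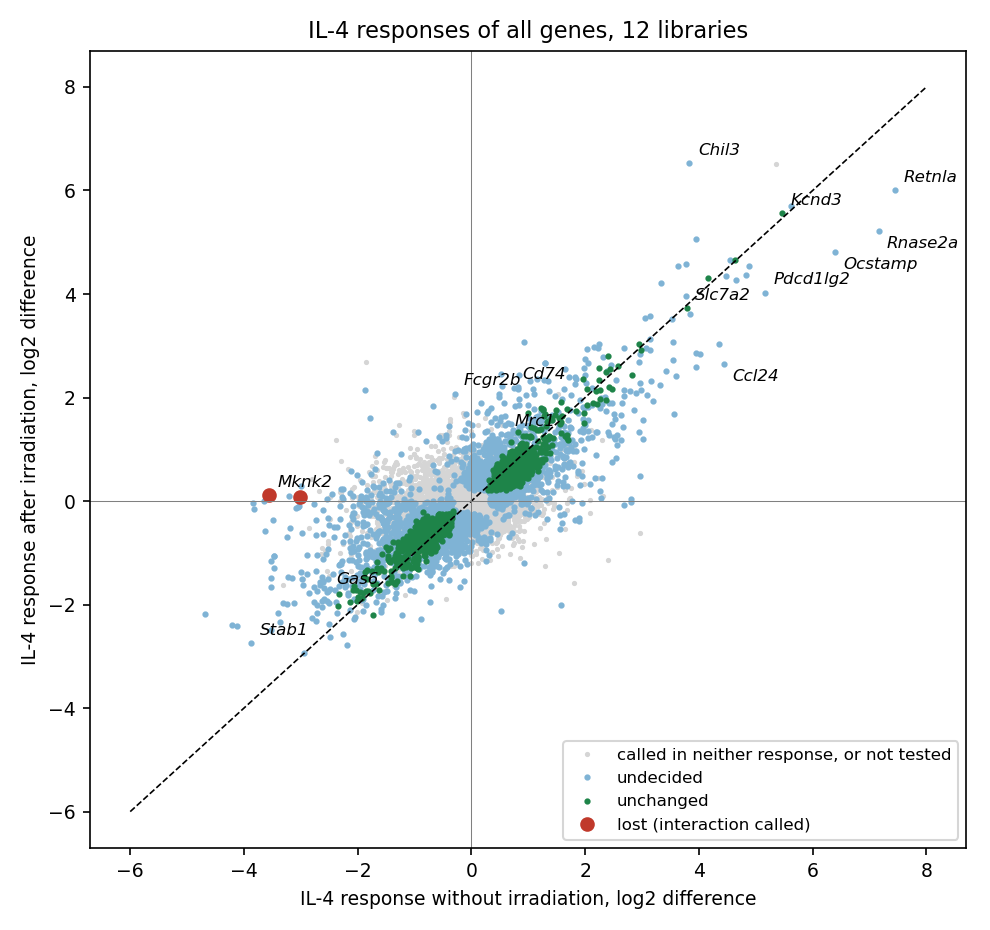
IL-4 response without irradiation (x axis, log2 difference) against the response after irradiation (y axis, log2 difference) for the tested genes over 12 libraries, with the line of equal responses dashed. Points are coloured by class: most of the strongly induced genes lie near the line, while Retnla, Rnase2a, Ocstamp, Ccl24 and Pdcd1lg2 lie below it and Chil3 above it, and the 2 called genes are at the left with no response after irradiation.

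Both lost responses belonged to genes at low levels. I830127L07Rik, a gene without an assigned function in these files, was at 1.38, 5.70 and 5.22 CPM in the 3 non-irradiated control libraries and at 0.354, 0.413 and 0.0920 CPM in the non-irradiated IL-4 libraries. In the 12 irradiated libraries it did not pass 0.0912 CPM in either state. It fell without irradiation (-3.02, adjusted p 9.94e-05), and the interaction was 3.11 ± 0.43 (SE, adjusted p 0.0476). Mknk2, a kinase that acts on the translation factor eIF4E, was at 6.11 and 7.09 CPM in 2 of the non-irradiated control libraries. It was at 1.12 CPM or less in each of the other 16 libraries, so its groups overlap. Non-irradiated control replicate 1 was at 6.1e-07 CPM and FLASH M0 replicate 2 at 2.6e-05 CPM, both far below 1 read. Such values are fractions of a read, so the level of Mknk2 is uncertain. Its interaction was 3.67 ± 0.44 (adjusted p 0.0239). In both genes the irradiated level was already lower in control medium, with differences from non-irradiated cells of -3.49 log2 units for I830127L07Rik (adjusted p 7.36e-05) and -3.82 for Mknk2 (adjusted p 5.05e-05). Both calls were lost in most of the 12 fits that leave out 1 library (10 for I830127L07Rik, 9 for Mknk2). Neither was called with the 15 libraries whose label and state agree (adjusted p 0.0646 for I830127L07Rik and 0.563 for Mknk2). With replicate number as a block in the fit, neither was called (adjusted p 0.137 and 0.0896).

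Most effectors of alternative activation rose with IL-4 in both settings, and 5 of them were called lower in irradiated cells under IL-4. Of 22 tested genes of this list, 16 rose without irradiation and 19 after it (9.55% and 12.2% of all genes), and none fell. The median response was 3.66 and 3.23 log2 units, against -0.0207 and -0.0121 over all tested genes. No interaction was called in the list, and its median was 0.0414 with 11 positive and 11 negative values. Only 1 response, that of Slc7a2, was placed as unchanged, while 19 were undecided and 2 genes responded in neither setting. The direct comparison of irradiated with non-irradiated cells under IL-4, however, called 5 of the 22 lower and 1 higher, where 1.28% of all tested genes were called lower and 1.76% higher. The 5 were Retnla, Rnase2a, Ccl24, Pdcd1lg2 and Flt1 (the last named after its values were seen), and the 1 was Mrc1. Mgl2 of the same list was not called. Its IL-4 levels did not overlap, at 543 to 769 CPM without and 98.5 to 257 CPM after irradiation, and its interaction was 0.10. In control medium 2 of the 22 were called lower and 0 higher in irradiated cells (3.18% and 2.87% of all genes).

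Retnla encodes a secreted cysteine-rich protein that is among the most strongly IL-4-induced macrophage genes. It was at 29.6, 18.9 and 14.9 CPM in the non-irradiated control libraries and at 3892, 3007 and 3064 CPM with IL-4. In the 6 irradiated libraries it ran from 7.46 to 33.2 CPM (median 22.2) in the control state and from 848 to 1497 CPM (median 1354) in the IL-4 state. The control levels overlap and the IL-4 levels do not, each irradiated library being below each non-irradiated one. The response was 7.46 ± 0.27 without and 6.01 ± 0.19 after irradiation (SE), and the interaction of -1.45 (95% interval -2.17 to -0.73) was not called (unadjusted p 0.000913, adjusted p 0.163). The level under IL-4 fell by 1.11 on the log2 scale (adjusted p 0.0273). That call was lost in 6 of the 12 fits that leave out 1 library, namely on leaving out any one of the 6 IL-4 libraries (adjusted p 0.0519 to 0.121), while the difference stayed between -1.13 and -1.07.

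Ocstamp, a membrane protein needed for the fusion of osteoclasts and giant cells, showed the same pattern. It was at 2.07, 1.42 and 1.22 CPM without irradiation or IL-4 and at 196, 148 and 156 CPM with IL-4. Irradiated libraries had 1.10 to 2.49 CPM (median 1.45) in the control state and 30.7 to 69.4 CPM (median 50.4) in the IL-4 state, with no overlap under IL-4. Its response was 6.40 ± 0.27 without and 4.80 ± 0.19 after irradiation, with an interaction of -1.59 (interval -2.30 to -0.89, adjusted p 0.129). The IL-4 level fell by 1.41 (adjusted p 0.00814), a call that held in each of the 12 fits that leave out 1 library, and not with all libraries as labelled (adjusted p 0.143).

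Rnase2a, a secreted ribonuclease of the eosinophil-associated family, was at 2.42, 1.27 and 1.74 CPM and, with IL-4, at 307, 253 and 319 CPM. After irradiation it ran from 0.867 to 3.77 CPM (median 1.95) and from 92.5 to 147 CPM (median 99.7). Again only the IL-4 levels were apart. The interaction was -1.94 (interval -2.80 to -1.09, adjusted p 0.129), and the IL-4 level fell by 1.39 (adjusted p 0.0207). Without non-irradiated M2 replicate 2, which leaves only replicate 3 in that group, the interaction was -2.11. The call of the IL-4 level was lost in 3 of the 12 fits that leave out 1 library, without FLASH M2, standard M2 or non-irradiated M2 replicate 3. Rnase2a has close relatives in the mouse genome among which reads could be split, so its level is uncertain.

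Ccl24, a chemokine that attracts eosinophils, differed most under IL-4 among the 6 effectors called. It was at 30.6, 27.2 and 24.2 CPM in the non-irradiated IL-4 libraries and at 1.54 to 7.09 CPM (median 3.50) in the irradiated ones, against at most 1.12 CPM in any control library. Its response was 4.44 ± 0.41 without and 2.64 ± 0.29 after irradiation, the interaction was -1.80 (interval -2.88 to -0.73, adjusted p 0.251) and the IL-4 level fell by 2.37 (adjusted p 0.00487). Pdcd1lg2, the ligand PD-L2 of the inhibitory receptor PD-1, was at 43.9, 44.4 and 64.3 CPM without and at 11 to 22.4 CPM (median 18.6) after irradiation under IL-4. Its interaction was -1.13 (adjusted p 0.435) and its IL-4 level fell by 1.74 (adjusted p 0.0125), a call lost without non-irradiated M2 replicate 3 (adjusted p 0.0892). For both genes the irradiated and non-irradiated IL-4 libraries did not overlap. With the irradiated libraries of 1 beam alone, the lower IL-4 levels of Retnla, Ocstamp, Rnase2a, Ccl24 and Pdcd1lg2 were not called with either beam (adjusted p 0.0609 to 0.192).

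**Figure D2:**
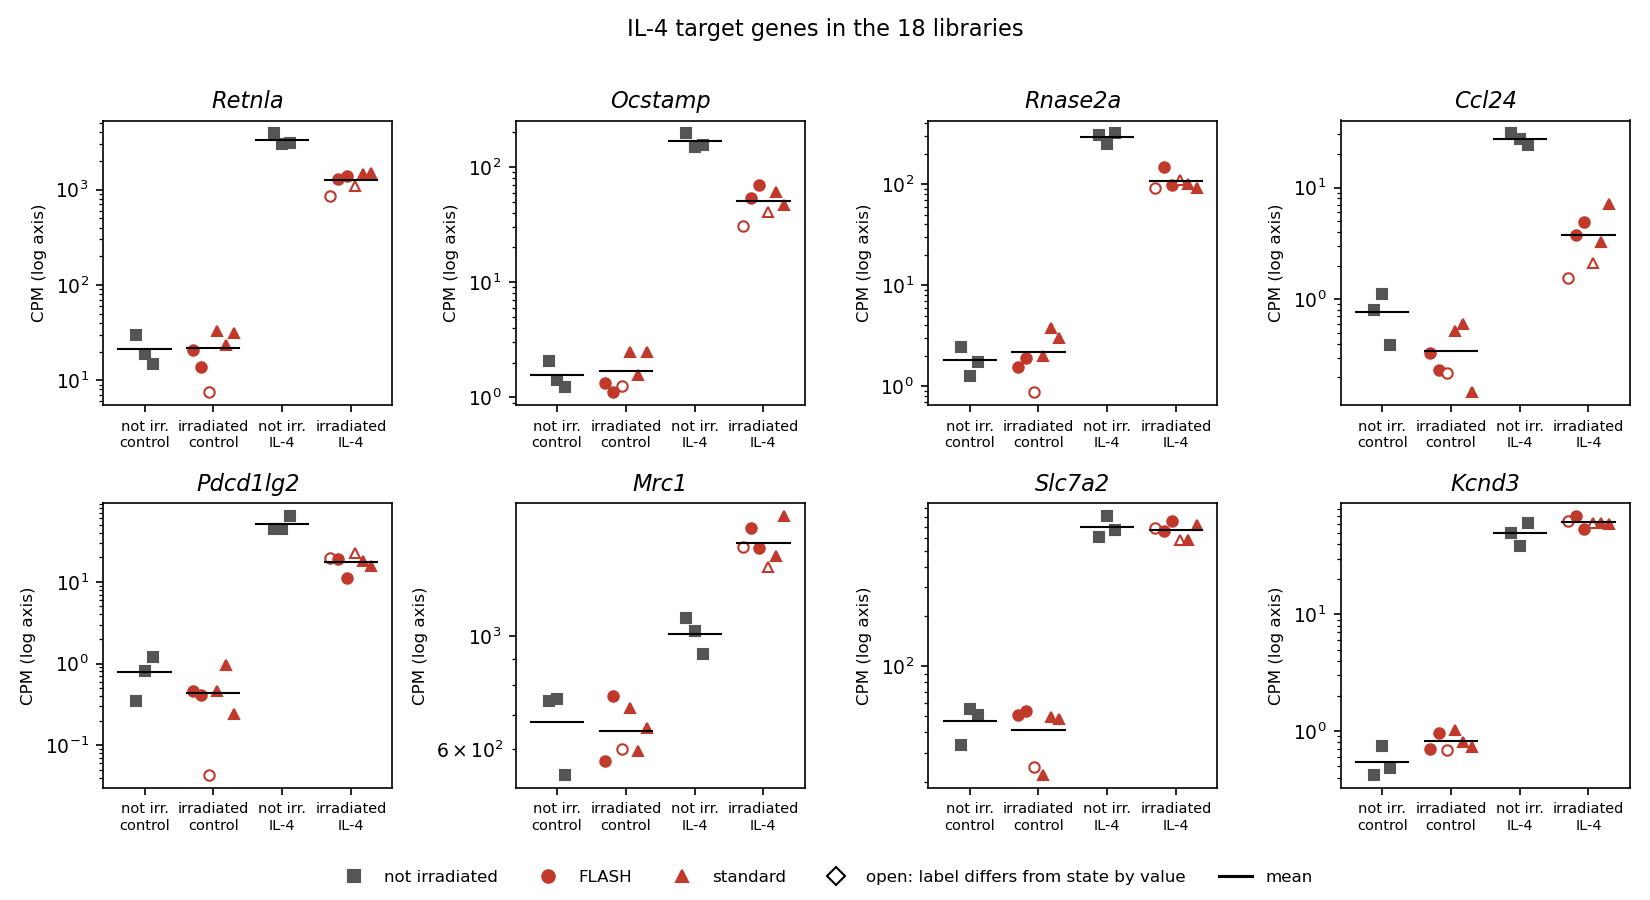
Level (CPM, log axis) of 8 IL-4 target genes in each of the 18 libraries, by irradiation and state, with the group mean as a line and open symbols for libraries whose label differs from the state read from Irg1 and Arg1. Retnla, Ocstamp, Rnase2a, Ccl24 and Pdcd1lg2 are lower in all 6 irradiated IL-4 libraries than in the 3 non-irradiated ones, Mrc1 is higher, and Slc7a2 and Kcnd3 overlap. Such a lack of overlap also occurred in genes whose response was placed as unchanged, such as Inpp5a and Rrs1.

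Mrc1 went the other way. The mannose receptor was at 1083, 1021 and 920 CPM in the non-irradiated IL-4 libraries and at 1363 to 1716 CPM (median 1487) in the irradiated ones, with overlapping control levels of 534 to 761 CPM. The response was 0.61 ± 0.17 without and 1.28 ± 0.12 after irradiation, the interaction was 0.67 (interval 0.21 to 1.13, adjusted p 0.338) and the IL-4 level rose by 0.69 (adjusted p 0.0281, lost in 4 of 12 fits that leave out 1 library, without FLASH M2 replicate 2 or replicate 3 of FLASH, standard or non-irradiated M2). Chil3, the chitinase-like lectin Ym1, was at 3716, 4810 and 5771 CPM under IL-4 without and at 5814 to 7426 CPM (median 6346) after irradiation. Its control level was 127, 923 and 147 CPM without and 52.4 to 121 CPM after irradiation, and was called lower in the test (-2.48, adjusted p 0.0255). Its interaction of 2.70 was not called (interval 0.97 to 4.42, adjusted p 0.295). In the 12 fits that leave out 1 library, that interaction ran from 1.37 to 4.02. Arg1, which set the states, was at 713, 653 and 161 CPM under IL-4 without irradiation and at 631 to 1057 CPM after it, and is given without a test.

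**Figure D3:**
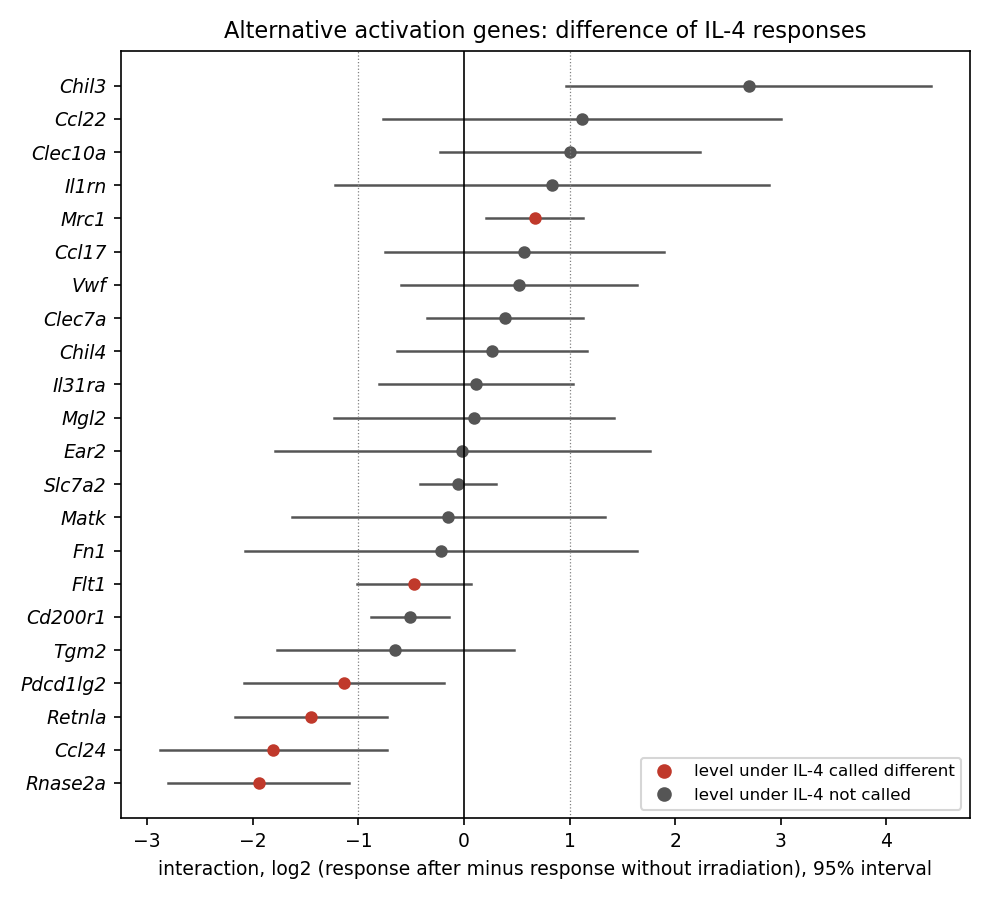
Interaction (log2, response after minus response without irradiation) with its 95% interval for the 22 tested alternative activation genes over 12 libraries, ordered by value, with dotted lines at 1 and -1. No interval here belongs to a called interaction. Red points mark the 6 genes whose level under IL-4 was called different in irradiated cells: 5 with negative values (Flt1, Pdcd1lg2, Retnla, Ccl24, Rnase2a) and Mrc1.

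Several of the strongest IL-4 responses were unchanged by the definition used. The 5 with the largest responses were Kcnd3, a potassium channel, Ddx4, an RNA helicase best known from germ cells, Lipn, a lipase, Slc7a2, a transporter of arginine, and Tm4sf19, a tetraspan membrane protein. Kcnd3 was at 49.9, 38.8 and 60.3 CPM under IL-4 without irradiation and at 54.2 to 69.7 CPM (median 60.9) after it, and its interaction was 0.10 (interval -0.55 to 0.74). Slc7a2 was at 602, 811 and 669 CPM and at 578 to 756 CPM (median 672), with an interaction of -0.06 (interval -0.42 to 0.30). Lipn was at 41.7, 53.1 and 44.0 CPM and at 62.5 to 76.7 CPM, and its interaction of 0.15 lay in an interval of -0.51 to 0.81. The intervals of Ddx4 (-0.86 to 0.93) and Tm4sf19 (-0.82 to 0.96) reached nearly to the limit of 1 log2 unit.

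The 5 genes whose log2 levels followed Retnla most closely over the 18 libraries were Rnase2a (Pearson r 0.993), Ocstamp (0.992), Rrs1, a ribosome assembly factor (0.989), Inpp5a, an inositol phosphatase (0.987), and Ddx4 (0.986). These values describe the split between control and IL-4 libraries above all, since any strongly induced gene shares it. Ocstamp and Rnase2a had the lower IL-4 level after irradiation that Retnla had. Inpp5a and Rrs1 were placed among the unchanged responses, with interactions of -0.24 and -0.16, although their IL-4 levels also did not overlap (105 to 127 against 72.1 to 89.8 CPM for Inpp5a, and 64.6 to 77.7 against 48.6 to 63.5 CPM for Rrs1).

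Of the genes of macrophage fusion and osteoclasts, 7 of 17 rose and 3 fell without irradiation (9.55% and 8.93% of all genes). After it, 8 rose and 5 fell (12.2% and 11.6%). Under IL-4 only Ocstamp was called different between irradiated and non-irradiated cells. Cdh1, the adhesion protein E-cadherin that takes part in IL-4-driven fusion, was at 25.2, 26.6 and 32.8 CPM without and at 20.4 to 27.3 CPM after irradiation, and its response was unchanged (0.96 and 0.81, interaction -0.15, interval -0.63 to 0.33).

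Genes of the IL-4 receptor and its signalling moved with IL-4 in both directions. Of 16 tested genes of the IL-4 receptor, STAT6 and SOCS list, 3 rose and 7 fell without irradiation (9.55% and 8.93% of all genes) and 4 rose and 6 fell after it (12.2% and 11.6%). The responses of 4 were unchanged and those of 9 undecided. Il4ra, the ligand-binding chain, fell in both (-0.95 and -0.69) and was unchanged, with an interval of -0.21 to 0.74. Its level was 27.5 ± 2.3 CPM (SD, n = 3) in non-irradiated and 23.5 ± 3.3 CPM (n = 6) in irradiated IL-4 libraries, which overlap. Stat6 was called in neither response and was at 183 to 292 CPM in all IL-4 libraries, with an interaction of 0.03 (interval -0.43 to 0.49). Pik3r1, a regulatory subunit of PI 3-kinase, had the smallest p in the list, with a response of -0.83 without and -0.20 after irradiation and an interaction of 0.63 (adjusted p 0.189).

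Among 17 transcription factors linked to alternative activation, 10 rose and 3 fell without irradiation (9.55% and 8.93% of all genes). After it, 8 rose and 4 fell (12.2% and 11.6%). Irf4, which drives many IL-4 target genes, rose by 3.64 ± 0.44 and 4.54 ± 0.31. Its IL-4 level was 89.7, 72.6 and 76.2 CPM without and 45.1 ± 4.75 CPM (SD, n = 6) after irradiation, which do not overlap, but its levels in control medium were apart in the same direction (3.13 to 9.46 against 0.642 to 2.14 CPM). Irf4 was called lower in irradiated cells in control medium (-1.56, adjusted p 0.0319) and not under IL-4 (-0.65, adjusted p 0.413). Egr2 rose in both (2.05 and 1.56), and its IL-4 levels overlapped at 66.4 to 92.9 CPM. Pparg, a lipid-sensing nuclear receptor, was called without irradiation only (0.81, adjusted p 0.0494, against 0.44, adjusted p 0.111), and its interaction was -0.37 (adjusted p 0.767).

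Some receptor and complement genes that IL-4 lowers stayed higher under IL-4 in irradiated cells. Of 23 receptors and complement genes of resident-type macrophages, 18 fell and 1 rose with IL-4 without irradiation, and 18 fell and 1 rose after it (8.93% and 11.6% of all genes fell). The interaction was positive for 17 and negative for 6, with a median of 0.419 against 0.00848 over all tested genes, and none was called. Under IL-4, 6 of the 23 were called higher in irradiated cells and none lower (1.76% and 1.28% of all genes). In control medium, without any IL-4, 5 of the 23 were called higher and 3 lower (2.87% and 3.18% of all genes).

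Gas6, a ligand of the TAM receptors by which macrophages take up dying cells, was at 287, 302 and 299 CPM in non-irradiated control libraries and at 67.0, 47.8 and 55.5 CPM with IL-4. In irradiated libraries it was at 429.8 to 558 CPM (median 489.7) and at 136 to 181 CPM (median 152), and the groups did not overlap in either state. It fell by 2.53 ± 0.13 on the log2 scale without and by 1.76 ± 0.09 after irradiation, with an interaction of 0.77 (interval 0.42 to 1.13, adjusted p 0.129). Its level rose with irradiation by 0.72 in control medium (adjusted p 0.00344) and by 1.49 under IL-4 (adjusted p 3.24e-05), the latter in each of the 12 fits that leave out 1 library.

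Maf, a transcription factor of tissue macrophages, overlapped in control medium (290 to 434 against 244 to 337 CPM) and not under IL-4, at 65.3, 55.2 and 61.9 CPM without and 88.9 to 105 CPM (median 99.5) after irradiation. Its response was -2.59 ± 0.16 without and -1.68 ± 0.11 after irradiation, and the interaction was 0.91 (interval 0.48 to 1.34, adjusted p 0.138). Without non-irradiated M0 replicate 3, which leaves 1 library in that group, the interaction was 1.199. The IL-4 level of Maf rose by 0.75 (adjusted p 0.0161), a call lost without non-irradiated M2 replicate 2. Stab1, a scavenger receptor, fell in both (-3.87 and -2.74), and its IL-4 levels overlapped at 39.6 to 70.3 against 59.3 to 121 CPM. Cx3cr1, the fractalkine receptor, fell in both (-3.32 and -1.98) to similar levels of 0.840 to 1.39 and 0.228 to 2.17 CPM, and its control level was called lower after irradiation (-1.71, adjusted p 0.0272).

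Class II antigen presentation genes stood far lower in irradiated cells, with or without IL-4. Of 9 tested genes, 1 rose with IL-4 without irradiation and 5 rose after it (9.55% and 12.2% of all genes), and no interaction was called. H2-Aa, a class II chain, was at 387, 795 and 637 CPM in non-irradiated control libraries and at 935, 643 and 808 CPM with IL-4, which overlap. In irradiated libraries it was at 10.4 to 22.2 CPM (median 16.4) and 39.2 to 108 CPM (median 53.6), which do not. Its response was 0.02 ± 0.25 (adjusted p 0.974) without and 1.46 ± 0.18 (adjusted p 9.63e-05) after irradiation, and the interaction was 1.44 (interval 0.78 to 2.11, adjusted p 0.129). Cd74, the class II invariant chain, responded by 0.75 (adjusted p 0.0713) and by 2.19 (adjusted p 7.68e-06), with an interaction of 1.44 (adjusted p 0.163). Ciita, the activator of class II transcription, responded by 0.28 (adjusted p 0.726) and 1.70 (adjusted p 0.00218), with an interaction of 1.42 (adjusted p 0.442).

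Even with IL-4 these genes stayed low in irradiated cells. Under IL-4 Cd74 was at 3515, 2919.5 and 3647 CPM without and at 273 to 587 CPM (median 360.4) after irradiation, and Ciita was at 86.2, 77.8 and 38.3 CPM and at 6.30 to 10.6 CPM. Irradiated cells had lower levels in control medium for 7 of the 9 genes, where 3.18% of all genes were called lower and 2.87% higher. Under IL-4 they had lower levels for 6 of the 9, where 1.28% of all genes were called lower. The differences under IL-4 were -3.75 for H2-Aa (adjusted p 8.24e-06) and -3.18 for Cd74 (adjusted p 3.24e-05), both called in each of the 12 fits that leave out 1 library.

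**Figure D4:**
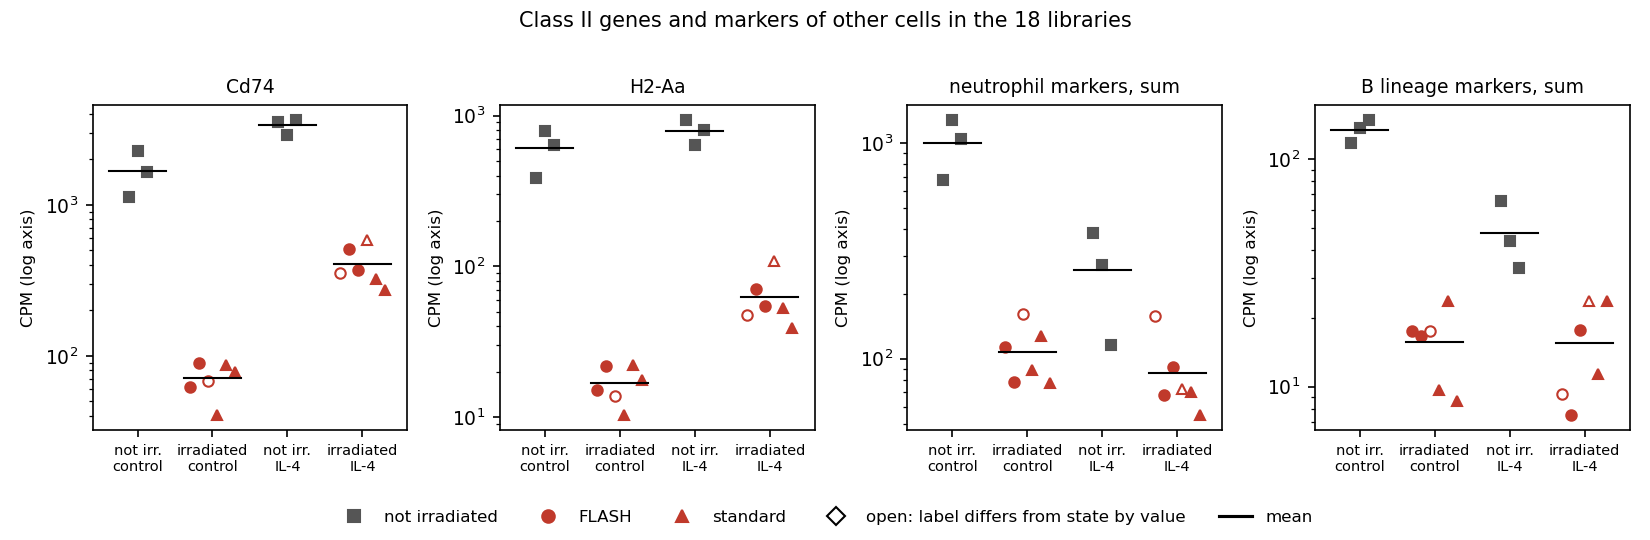
Level (CPM, log axis) of Cd74 and H2-Aa and summed level of 17 neutrophil and 8 B lineage markers in each of the 18 libraries, by irradiation and state, with the group mean as a line and open symbols for libraries whose label differs from the state by value. All 4 measures are lower in the irradiated control libraries than in the non-irradiated ones. Under IL-4 the 2 class II genes and the B lineage sum remain lower, and the neutrophil sums overlap.

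Markers of other marrow cells differed between the groups and are set beside the class II values. Summed B lineage markers were at 118 to 149 CPM in non-irradiated control libraries, 33.2 to 65.5 CPM in non-irradiated IL-4 libraries, and 7.52 to 23.9 CPM in all irradiated libraries. Summed dendritic cell markers were at 283 to 629 CPM and 351 to 699.9 CPM in the control states and at 2026 to 2631 and 1742 to 2376 CPM in the IL-4 states, overlapping in both. Of 11 tested dendritic cell markers, 6 were nevertheless called lower and none higher in irradiated cells in control medium (median -1.58). Over all genes these shares were 3.18% and 2.87%. Under IL-4, 1 was called lower (1.28% of all genes). The part of such cells in the class II values was not tested. In bulk RNA, fewer cells of a type and less RNA per cell cannot be told apart.

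Over the 18 libraries the responses were also sorted by size alone, by limits chosen after the data were seen and with no test. A response counted if it reached 1 log2 unit with no overlap between the libraries with and without IL-4, as 8.19% of the genes did without and 4.33% after irradiation. The 2 responses differed by 1 log2 unit or more in 625 genes (4.79%), 468 with a higher and 157 with a lower value after irradiation. By these limits 221 responses were lost (the other response under 1 log2 unit), 36 weakened, 26 gained, 6 strengthened and 368 kept. A further 565 genes with a response in either setting fell in none of these classes. Of the 221 lost, 176 were genes that IL-4 lowered and 45 genes that it raised. The non-irradiated groups hold 3 libraries each and enter both the response and the difference, so a response that was large there by chance leans towards lost. No overlap is also a stricter demand on 6 against 6 irradiated libraries than on 3 against 3 non-irradiated ones. This lowers the share after irradiation and leans the classes towards lost over gained, so neither pair of values measures a difference in strength.

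The responses lost downwards included neutrophil genes. Ltf, the neutrophil granule protein lactoferrin, was at 84.9, 123 and 122 CPM in non-irradiated control libraries and at 34.9, 20.3 and 3.08 CPM with IL-4, and in irradiated libraries at 0.560 to 4.16 CPM and 0.270 to 11.3 CPM. Hp, haptoglobin, was at 15.3, 67.6 and 15.3 CPM, then 2.03, 7.44 and 1.47 CPM, and at 2.33 to 6.96 CPM in all irradiated libraries. Of 17 tested neutrophil genes, 14 fell with IL-4 without irradiation and 1 after it (8.93% and 11.6% of all genes). In control medium 15 of the 17 were called lower in irradiated cells (3.18% of all genes), with a median difference of -4 log2 units over the list. The interaction for Ltf was 3.80 (interval 2.29 to 5.30, adjusted p 0.124), and none was called in the list. Without non-irradiated M2 replicate 2, that of Ltf was 5.07. The only non-irradiated IL-4 library left there is replicate 3, which stood apart in Arg1 and had the lowest Ltf level of that group.

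Summed neutrophil markers were at 673 to 1281 CPM in non-irradiated control libraries and at 116 to 384 CPM with IL-4, but at 76.9 to 161 CPM and 54.9 to 157 CPM in the irradiated libraries. The irradiated control libraries thus lay within or below the range that the non-irradiated libraries had with IL-4. Summed monocyte markers followed the same order, at 139 to 226 and 41.6 to 83.0 CPM without and at 34.0 to 63.3 and 32.1 to 76.3 CPM after irradiation. The part of these cells in the other differences was not tested.

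Of responses lost upwards, Gfra2, a co-receptor for the growth factor neurturin, was at 13.9, 10.4 and 14.3 CPM under IL-4 without and at 0.451 to 3.99 CPM (median 1.21) after irradiation, with overlapping control levels of at most 1.71 CPM. In the test it rose in both, by 3.02 (adjusted p 0.00184) and by 1.2 (adjusted p 0.0352), the interaction was -1.82 (adjusted p 0.401) and the IL-4 level fell by 2.29 (adjusted p 0.0204, and 0.117 and 0.0534 without replicate 3 of non-irradiated and of standard M2). Map2, a protein of microtubules, was at 31.0, 46.9 and 68.3 CPM under IL-4 without and at 7.84 to 37.1 CPM after irradiation, which overlap. Gzmb, the protease granzyme B, was at 4.15, 14.2 and 2.07 CPM without and at 0.119 to 0.856 CPM after irradiation under IL-4, where summed T and NK cell markers, of which it is one, were at 7.82 to 30.4 and 1.46 to 8.34 CPM. Its interaction was -2.75 (adjusted p 0.288).

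Gained responses in the 18 libraries included Fcgr2b, the inhibitory Fc receptor. It was at 167, 294 and 209 CPM in non-irradiated control libraries and at 265, 135 and 304 CPM with IL-4, which overlap. In irradiated libraries it ran from 50.2 to 81.4 CPM (median 65.3) and from 229 to 381 CPM (median 309.8), which do not. The test gave a response of -0.29 (adjusted p 0.621) without and 2.07 (adjusted p 9.26e-05) after irradiation, with an interaction of 2.36 ± 0.41 (interval 1.46 to 3.26, adjusted p 0.124). That interaction was 1.77 without non-irradiated M2 replicate 2 and 2.94 without replicate 3 of the same group. Each of these fits leaves 1 library in that group. The IL-4 levels overlapped, and the irradiated control level was called lower (-1.93, adjusted p 0.00338).

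Ccl6, a chemokine of myeloid cells, was at 602, 501 and 505 CPM and, with IL-4, at 928, 1049 and 755 CPM without irradiation. After it, the levels were 204 to 417 CPM (median 329.9) and 1131 to 1487 CPM (median 1345), apart from the non-irradiated libraries in both states. Its response was 0.82 (adjusted p 0.0507) and 2.16 (adjusted p 8.18e-06), and the interaction was 1.34 (adjusted p 0.202). It is one of 19 tested chemokines, of which 3 rose and 2 fell without irradiation (9.55% and 8.93% of all genes) and 9 rose and 1 fell after it (12.2% and 11.6%). Apol7c, an apolipoprotein L family member, rose after irradiation (1.85, adjusted p 0.00263, against -0.68, adjusted p 0.403, without it; interaction 2.53, adjusted p 0.202), from 0.187 to 0.602 CPM to 1.12 to 9.37 CPM. Without irradiation Apol7c was at 5.14 to 19.8 CPM in control medium and at 12 to 17 CPM with IL-4. Ltb4r1, a leukotriene B4 receptor, did not overlap between control and IL-4 in either setting, at 2.42 to 9.95 and 10.9 to 19.3 CPM without and at 0.23 to 0.481 and 5.23 to 7.28 CPM after irradiation. Its responses were 0.92 (adjusted p 0.0850) and 3.07 (adjusted p 2.88e-06), and the interaction of 2.15 was not called (adjusted p 0.129).

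Genes of oxidative phosphorylation rose with IL-4 in both settings. Of 26 tested genes of this list, a pathway that IL-4 is known to support, 16 rose without irradiation and 21 after it (9.55% and 12.2% of all genes), none fell, and 14 were placed among the unchanged responses. Their median response was 0.498 and 0.472, and none was called different between irradiated and non-irradiated cells in either state. Of 20 tested genes of lipid handling, 5 rose and 5 fell without irradiation (9.55% and 8.93% of all genes). After it, 6 rose and 5 fell (12.2% and 11.6%), and 6 were unchanged. Of 25 targets of p53, the transcription factor that irradiation activates, 7 were called higher and 1 lower in irradiated cells in control medium (2.87% and 3.18% of all genes), and 6 higher under IL-4 (1.76%). Their median interaction was -0.0709. The member with the smallest interaction p was Plk2, a stress-induced kinase (-0.80, adjusted p 0.163).

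FLASH and standard irradiation were compared in the same libraries as separate groups of 2. The interaction differed between the beams for 1 of 13040 genes (0.00767%), Zfp462, a zinc finger protein. It was at 7.57 to 12.5 CPM in the 3 FLASH libraries of the IL-4 state and at 0.631 to 0.963 CPM in the 3 standard ones. Its interaction was 4.25 with FLASH and -0.33 with standard irradiation, and their difference was 4.58 (adjusted p 0.0370). No gene was called in 11 of the 12 fits that leave out 1 library, so the call for Zfp462 was lost in those, and 2 genes were called without FLASH M0 replicate 3. For Retnla the interaction was -1.17 with FLASH and -1.72 with standard irradiation, for Ocstamp -1.23 and -1.95, and for Gas6 0.85 and 0.69, none of which was called different (adjusted p 0.9999 for Retnla). With 2 libraries a group these values do not show that the beams act alike.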

How the data were processed

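The 27 RNA-seq libraries of macrophages grown from mouse marrow form 9 groups of 3. The authors deposited 1 table of signal values per gene and library, which are CPM after a scaling by the authors and not counts. Per the submitters' processing notes, kallisto 0.46.1, R 4.0.5 and edgeR 3.36.0 were used, and the genome build named there is a human one, although the table holds mouse gene symbols. The table has 19070 entries, 1 of them without a symbol. The replicate numbers come from the labels.

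The libraries, members and gene lists were chosen with earlier results of these data known, and so was the use of replicates 2 and 3 for the tests. Genes at 1 CPM or more in at least 2 of the 12 tested libraries were kept (13042), and 13040 were tested after leaving out Arg1 and Irg1. Values were taken as log2(CPM + 0.5) and fitted with limma 3.58.1 in R 4.3.3, with a trended prior variance and 4 groups. P-values were adjusted by Benjamini-Hochberg over all tested genes, and below 0.05 a gene was called. The fit was tested on simulated data. Since the values are not counts, no count test was run.

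Genes are named by rule: a fixed set of 18, the called interactions, the 5 members of each class with the largest response (predicted gene models left out, mean of at least 5 CPM in 1 group), the member of each list with the smallest interaction p, and the 5 genes most like Retnla. Flt1, I830127L07Rik and Zfp462 fall outside the rule and were chosen after their values were seen. Promoters came from the RefSeq table of GRCm38.p6. Alternatives changed the pseudocount, the filter, the scaling, the prior variance, the groups, the block, the libraries and the beams.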

Additional observations from a re-analysis of the deposited data

Results flagged for a closer look

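In groups of 6 irradiated libraries, 1 library lay far from the other 5 in 12 of the 128 groups looked at, and about 5% would by chance. In the IL-4 state, the library labelled FLASH M0 replicate 1 stood apart in Camp (1.62 CPM), Cd36 (5184 CPM), Mgl2 (98.5 CPM) and Rrs1 (48.6 CPM). Its label differs from its state by value. FLASH M2 replicate 3 stood apart in Il4i1 (9.67 CPM) and Mknk2 (0.182 CPM), FLASH M2 replicate 2 in Rnase2a (147 CPM), standard M2 replicate 3 in Tmem176a (6.48 CPM) and the library labelled standard M1 replicate 1 in Il12b (0.18 CPM). In the control state, standard M0 replicate 1 stood apart in Il12b (0.28 CPM) and Mknk2 (1.12 CPM), and standard M0 replicate 3 in Itgam (585 CPM).

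The IL-4 response differed by the interaction test in I830127L07Rik (3.11 log2 units) and Mknk2 (3.67 log2 units). The interaction differed between FLASH and standard irradiation in Zfp462 (4.58 log2 units).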

How the results depend on the processing

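Counts of called interactions, lost responses and beam differences were small and moved with most choices, and the cause was not tested. The other counts moved with fewer of the choices. The interaction count of 2 became 0 with a pseudocount of 0.1, a filter of 5 CPM in 4 libraries, 6 groups, FLASH only or standard only, 10 without a filter, 4 without a trend in the prior variance, 1 with all 9 groups and 4 with the 15 libraries whose label and state agree (Adam8, Amica1, Arhgap29 and Wdfy2, neither of the 2). Lost responses (2) became 0 with the pseudocount of 0.1, the 5 CPM filter, 6 groups, FLASH only or standard only, 9 without a filter, 4 without a trend, 1 with 9 groups and 1 with 15 libraries, where 1 response was also weakened. Unchanged responses (1179) numbered 1826 with 15 libraries, 408 with all libraries as labelled, 310 with FLASH only and 342 with standard only. The response without irradiation (2410 genes) numbered 1498 as labelled, 1534 with FLASH only and 1518 with standard only, and the response after irradiation (3109) numbered 1134, 657 and 702. The effect of irradiation in control medium (789 genes) numbered 1430 with 15 libraries, 108 with FLASH only and 71 with standard only. Under IL-4 (396 genes) it numbered 225 without a trend, 208 with 6 groups, 970 with 15 libraries, 7 with FLASH only and 9 with standard only. The FLASH against standard difference (1 gene) became 0 with the pseudocount of 0.1, without a filter and with the 5 CPM filter. The level of Mrc1 under IL-4 reversed with all libraries as labelled (-0.78, adjusted p 0.675).

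Leaving out each library in turn gave 0 to 291 interactions, 0 to 171 lost, 0 to 35 weakened, 0 to 48 gained and 723 to 1101 unchanged responses. It gave 1322 to 2349 genes responding without and 2429 to 3383 after irradiation, 292 to 1098 irradiation effects in control medium and 166 to 584 under IL-4, and 0 to 2 differences between the beams. The highest interaction count came without non-irradiated M2 replicate 2, which leaves only replicate 3, the library that stood apart in Arg1, in that group. The lowest counts of the response without irradiation and of the effect in control medium came without non-irradiated M0 replicate 2, and the effect in control medium numbered 511 without FLASH M0 replicate 2. The effect under IL-4 numbered 166 without standard M2 replicate 3, 221 without FLASH M2 replicate 2 and 237 without FLASH M2 replicate 3. A group left with 1 library is assumed to vary like the others.

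Same-numbered libraries did not deviate together (15 pairs, correlations from -0.284 to 0.0182, 0 above 0.1). With so few libraries in a group, this cannot exclude a shared run or preparation. Same-numbered libraries carry the same code in their names, and the labels do not say what it marks. With the replicate block the interaction, lost responses and the beam difference each numbered 0, with an adjusted p of 0.0896 for Mknk2 and 0.137 for I830127L07Rik. Over all alternatives, 1536 values of the interaction for single genes stayed on their side of the threshold, 34 lost a call and 15 gained one. Of the values of the level under IL-4, 299 stayed, 72 lost the call and 1 reversed. Of 25 alternatives the call was lost in 10 for Retnla and for Map2, 9 for Mrc1, 7 for Rnase2a, 5 for Pdcd1lg2, 4 for Maf, 3 for Ocstamp and 1 for Gas6, and of 24 in 8 for Gzmb, 5 for Gfra2 and 2 for Ccl24. It was lost in none for Cd74 and H2-Aa.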
